A study of Enallax costatus with 10 samples.

Results

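In drops of the green alga Enallax costatus that had begun to dry, 12 of 32478 assembly genes met a rule for a peak over every other stage of drying and rewetting. They were chosen from the measured values. In the deposited table of normalised expression, the lower of the 2 Early desiccation values had to be at least 2 times the highest of the 8 values from the other stages, and both Early desiccation libraries had to hold at least 30 counts. Their height in Early desiccation is therefore a description and carries no test. Normalised expression here is, by the name and values of the table, per transcript length and scaled by TMM, a factor per library that sets the bulk of genes level, so it can be compared between genes as well as between libraries.

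Green algae that survive drying meet water loss as a graded stress. While liquid remains, the medium becomes more concentrated and cells lose water by osmosis, and only later do the cells dry out. Transcripts that rise at the onset of such a stress and then subside are usually described as an early or transient response, set apart from transcripts that build up as cells dry or that return with water. An assembly gene is a group of RNA sequences put together from the reads without a genome. The tables used here list assembly genes by identifier and pair none of them with a gene name, so no function is given to any of the 12.

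All libraries came from strain CCAP 276-31, grown for 6 weeks in flasks with 150 mL of BBM+WH medium and left to dry in drops of 40 µL on round glass slips. The Hydrated stage was sampled at 0 h, Early desiccation at 2.5 h, when 25% of the volume was gone, Late desiccation at 7.5 h, when 60% was gone, and Dry after circa 24 h in total, of which the flat dots spent the last 11 h in the chamber. The Rehydrated stage followed 1 h after rewetting. Each of the 5 stages had 2 libraries, and no label states that they are separate cultures. The p-values then reflect only how much these samples vary, and that variation may be technical. Every stage was bulk RNA, in which a higher value from more cells with a transcript and one from more transcript per cell cannot be told apart. The labelled alga and stages could not be checked against marker genes, because the identifiers carry no names.

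Total counts ran from 1974791 to 3867192 per library. A count was worth more in the later stages. Relative to Early desiccation replicate 1, the normalised value of 1 count was 1.03 and 1.16 in Hydrated, 1 in Early desiccation replicate 2, 1.76 and 1.4 in Late desiccation, 3.01 and 2.30 in Dry, and 3.06 and 4.61 in Rehydrated (replicates 1 and 2). Low values were thus measured most coarsely in the Rehydrated libraries and most finely in the Early desiccation and Hydrated libraries.

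Few transcripts met the peak rule in Early desiccation. The same rule applied to each stage in turn found 112 genes for Hydrated, 12 for Early desiccation, 42 for Late desiccation, 789 for Dry and 105 for Rehydrated. As a share of the genes with at least 30 counts in both libraries of the stage, these were 1.35% of 8326, 0.136% of 8819, 0.657% of 6389, 17.9% of 4400 and 11.1% of 946. Early desiccation therefore had the most genes that could qualify and the fewest that did. The minimum of 30 counts stood for a higher normalised value in the later stages, where a count was worth more. The shares thus cover sets of genes that differ in level. Early desiccation was the smallest group on 2 other scalings as well, with 6 genes on TMM-scaled CPM and 5 on DESeq2 size factors, but not on CPM from total counts, where it had 25 and Late desiccation 17. The peaks were also low. Their median height, as the ratio of the lowest library of the stage to the highest library outside it over genes where that was above 0, was 2.16 for Early desiccation, against 2.63 for Hydrated, 2.24 for Late desiccation, 2.89 for Dry and 5.49 for Rehydrated.

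**Figure D1:**
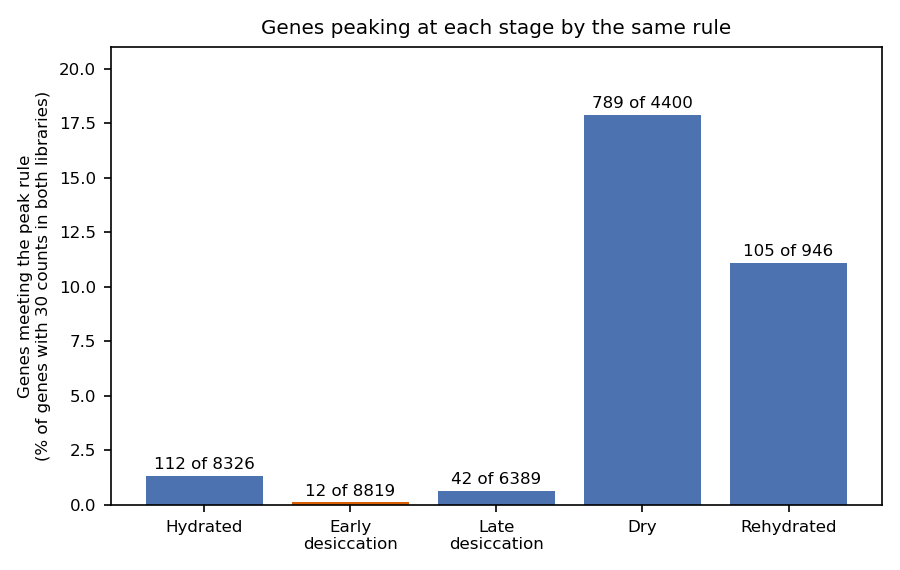
Share of genes that met the peak rule at each stage (bars, in % of the genes with at least 30 counts in both libraries of that stage), with the number of genes above each bar. The orange bar for Early desiccation, at 12 of 8819 genes, is the lowest of the 5 stages, and the bar for Dry, at 789 of 4400, the highest.

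The tallest peak belonged to TRINITY_DN188154_c0_g2. Its normalised expression was 1.52 and 0.505 in Hydrated, 6.92 and 13.6 at Early desiccation, 1.12 and 1.35 at Late desiccation, 0.24 and 0.551 in Dry, and 0 in both Rehydrated libraries. Both Early desiccation values lay far above the others, and the lower of them was 4.55 times the highest value elsewhere, in Hydrated replicate 1. The Early desiccation mean of 10.2 ± 4.69 (SD, n = 2) was 10.1 times the Hydrated mean. The gene had 258 counts in the 2 Early desiccation libraries together and was the only member whose 95% counting interval for the ratio, 2.69 to 7.75, stayed above 2. In Late desiccation it stood at 12.1% of its Early desiccation mean, close to the 9.91% of Hydrated drops.

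A pair of members had very few counts on one side of the peak, 2 before it in one case and 4 after it in the other. TRINITY_DN216255_c5_g1 had values of 0 and 0.44 in Hydrated, 7.62 and 8.95 at Early desiccation, 2.73 and 3.18 at Late desiccation, and 0 in all 4 Dry and Rehydrated libraries. It was all but undetected in wet drops (2 counts), had 82 counts in Early desiccation and still 20 in Late desiccation. On TMM-scaled library sizes this made Early desiccation 38.9 times Hydrated (counting interval 10.4 to 326) and Late desiccation 16.2 times Hydrated (3.94 to 143). TRINITY_DN215037_c8_g1 had the opposite asymmetry, with values of 0.293 and 1.51 in Hydrated, 7.05 and 3.28 at Early desiccation, 0.119 and 0 at Late desiccation, and 0 in all 4 Dry and Rehydrated libraries. It was present before drying, and its mean in Late desiccation was 1.16% of that in Early desiccation. This gene had 531 counts in Early desiccation, and its limit at 0, the normalised value that 3 counts would have, was between 0.0824 and 0.271 in the libraries where it was not detected. The height of its peak rested on Hydrated replicate 2, since the ratio was 2.16 with that library and 11.2 without it.

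The 2 most abundant members had similar levels in Hydrated and Late desiccation drops and much lower ones in Dry. TRINITY_DN208169_c7_g2 had values of 11.1 and 9.25 in Hydrated, 25.2 and 32.0 at Early desiccation, 9.10 and 9.86 at Late desiccation, 0 and 3.33 in Dry, and 0 in both Rehydrated libraries. Its Late desiccation and Hydrated libraries overlapped, and its Dry libraries lay below both. With a short effective length it rested on 135 counts in Early desiccation, and a count of 0 in the Dry or Rehydrated libraries still allowed values of 3.54 to 5.43. TRINITY_DN199720_c2_g2 had values of 11.2 and 5.01 in Hydrated, 26.4 and 23.0 at Early desiccation, 5.25 and 9.89 at Late desiccation, 1.80 and 1.33 in Dry, and 6.79 and 0.392 in Rehydrated. It had the most Early desiccation counts of the 12, at 591, and Early desiccation libraries within 1.15-fold of each other, but its Rehydrated libraries disagreed. One of these lay within the Hydrated range and the other below every Dry value.

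TRINITY_DN193373_c2_g1 and TRINITY_DN224264_c3_g3 had stage means that were lower at each step after the peak. The same held for TRINITY_DN188154_c0_g2, TRINITY_DN208169_c7_g2, TRINITY_DN216149_c4_g1 and TRINITY_DN221010_c0_g2, so this course was not particular to the pair. TRINITY_DN193373_c2_g1 had values of 6.39 and 5.16 in Hydrated, 13.1 and 16.6 at Early desiccation, 3.24 and 5.16 at Late desiccation, 3.27 and 4.15 in Dry, and 0.994 and 0 in Rehydrated. TRINITY_DN224264_c3_g3 had values of 2.26 and 1.49 in Hydrated, 4.81 and 6.28 at Early desiccation, 2.09 and 1.25 at Late desiccation, 1.67 and 0.78 in Dry, and 0.846 and 1.04 in Rehydrated. TRINITY_DN193373_c2_g1 and TRINITY_DN224264_c3_g3 had 514 and 343 counts in Early desiccation, and both had Hydrated as their next highest stage. TRINITY_DN224264_c3_g3 and TRINITY_DN199720_c2_g2 were the members detected in all 10 libraries.

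A further pair had Dry as the next highest stage, with similar stage means in Late desiccation and Dry. TRINITY_DN223580_c5_g1 had values of 1.96 and 5.68 in Hydrated, 16.6 and 28.8 at Early desiccation, 4.04 and 5.76 at Late desiccation, 2.65 and 7.99 in Dry, and 0 in both Rehydrated libraries. TRINITY_DN198162_c1_g1 had values of 3.63 and 2.25 in Hydrated, 13.3 and 10.9 at Early desiccation, 4.30 and 2.90 at Late desiccation, 3.83 and 5.06 in Dry, and 1.69 and 0 in Rehydrated. For TRINITY_DN223580_c5_g1 the libraries of Hydrated, Late desiccation and Dry overlapped, whereas for TRINITY_DN198162_c1_g1 both Dry libraries lay just above both Hydrated libraries. TRINITY_DN198162_c1_g1 had 87 Early desiccation counts and was the one member whose counting interval for the ratio, 0.945 to 5.71, reached below 1. In Rehydrated replicate 2 a count of 0 still allowed values of up to 3.68 for this gene and 3.44 for TRINITY_DN223580_c5_g1. The limit for TRINITY_DN198162_c1_g1 lay above its lower Late desiccation value of 2.90 but below both Dry values. That for TRINITY_DN223580_c5_g1 lay above its lower Dry value of 2.65 but below both Late desiccation values.

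The other 3 members had Early desiccation means from 2.31 to 5.59. The median was 5.19 for all genes with at least 30 counts in both Early desiccation libraries. TRINITY_DN216149_c4_g1, the least expressed, had values of 0.786 and 0.404 in Hydrated, 2.63 and 1.99 at Early desiccation, 0.73 and 0.903 at Late desiccation, 0.356 and 0.407 in Dry, and 0 and 0.548 in Rehydrated. TRINITY_DN220040_c0_g3 had values of 1.12 and 0.801 in Hydrated, 3.61 and 7.48 at Early desiccation, 0 and 1.47 at Late desiccation, 0.505 and 0.857 in Dry, and 1.67 and 0 in Rehydrated. TRINITY_DN221010_c0_g2 had values of 1.52 and 2.04 in Hydrated, 4.26 and 6.93 at Early desiccation, 1.41 and 1.91 at Late desiccation, 2.05 and 0.789 in Dry, and 1.22 and 0 in Rehydrated. No stage outside Early desiccation stood out in all 3, and the single highest value outside the peak fell in Late desiccation, Rehydrated and Dry libraries in turn.

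**Figure D2:**
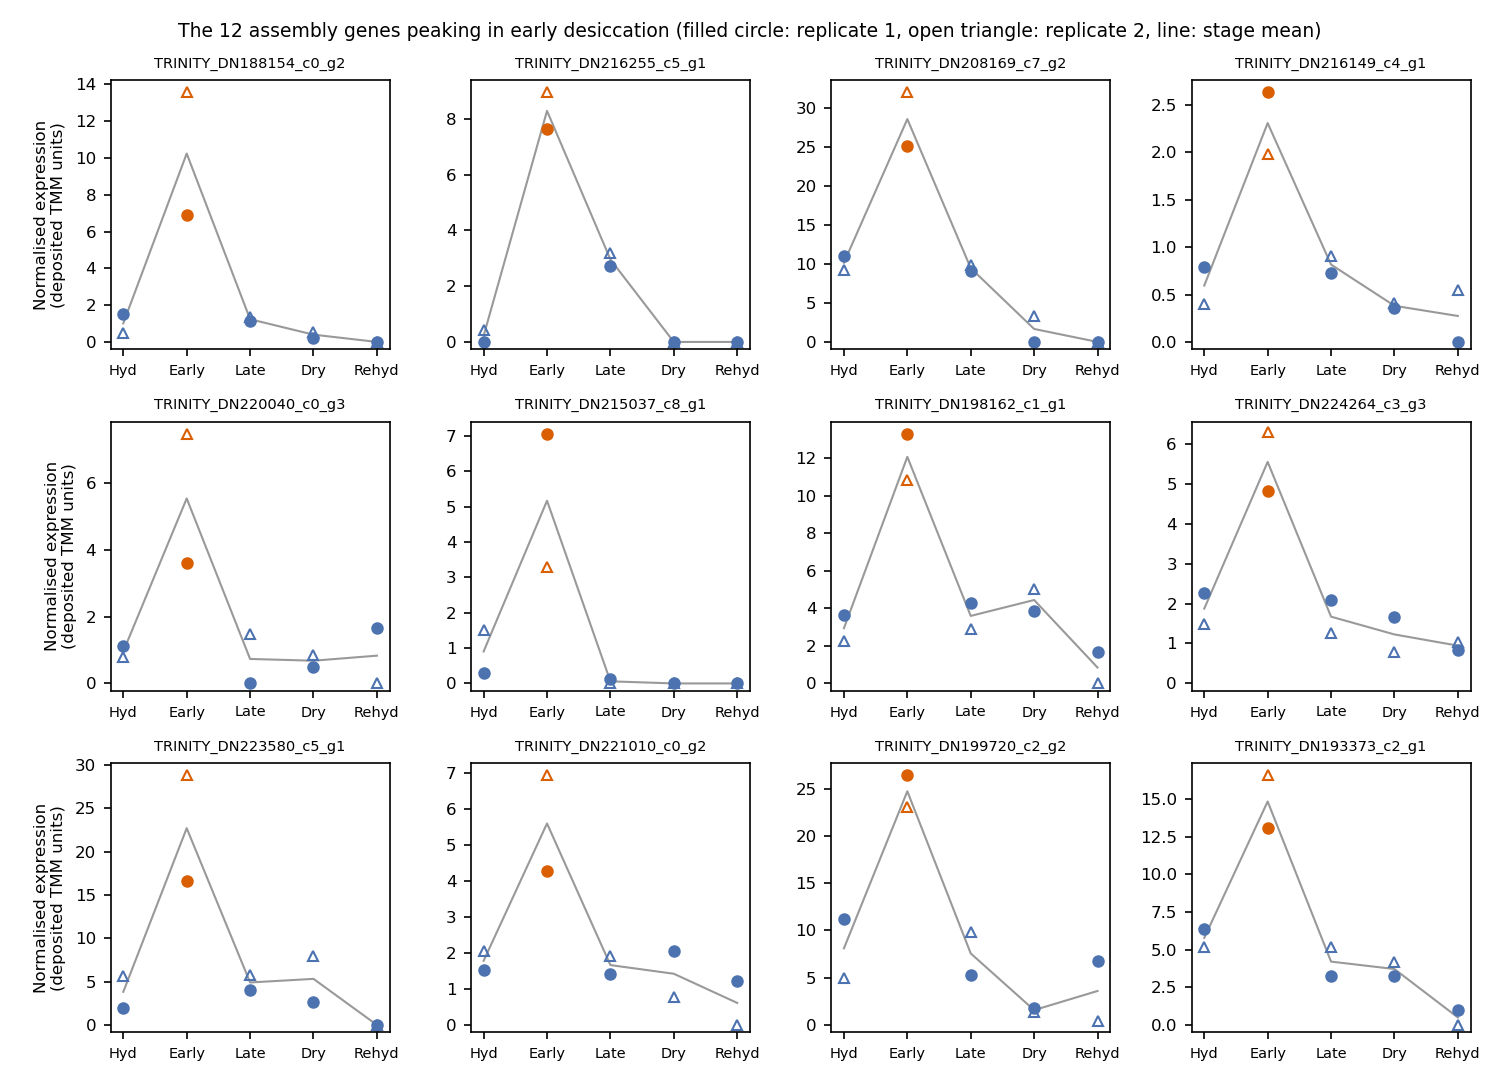
Normalised expression (deposited TMM units, linear axes that differ between panels) of the 12 members at the 5 stages, with replicate 1 as filled circles, replicate 2 as open triangles and the stage mean as a line. Both Early desiccation points, in orange, lie above the 8 others in each panel, and the gap is widest for TRINITY_DN188154_c0_g2, where the ratio was 4.55.

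The 2 Early desiccation libraries differed from each other by 1.15-fold to 2.15-fold over the 12 members, and replicate 2 was the higher one in 8 members and replicate 1 in 4. For TRINITY_DN215037_c8_g1 and TRINITY_DN220040_c0_g3 the fold between replicates, 2.15 and 2.07, was about as large as the height of the peak. The next highest stage by mean was Hydrated for 7 members, Late desiccation for 3, Dry for 2 and Rehydrated for 0. All members together held 0.0452% and 0.0417% of the counts in Early desiccation, against 0.013% and 0.0126% in Hydrated.

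Peak heights lay close to the limit that defined them. The ratio was between 2.05 and 4.55 with a median of 2.16, and 11 of the 12 members were under 2.5. The counting interval of the ratio reached below 2 for those same 11 members, from the counts of the 2 libraries that set it. Intervals and limits at 0 cover counting error only and leave out the variation between libraries of a stage. Scaled to total counts, those libraries differed by more than counting error. The chi-square per degree of freedom was 32.1 in Early desiccation and ran from 10 in Dry to 37.2 in Rehydrated. The intervals are therefore too narrow as a measure of how far stages differ. Without molecular identifiers, a read is also not a separate molecule. The ratios also moved with the scaling. On TMM-scaled CPM 6 of the 12 stayed at 2 or above, on DESeq2 size factors 5, and on CPM from total counts 8. The 3 members that met the rule on all of these were TRINITY_DN188154_c0_g2, TRINITY_DN216255_c5_g1 and TRINITY_DN208169_c7_g2, whereas TRINITY_DN224264_c3_g3 and TRINITY_DN221010_c0_g2 met it on the deposited scaling alone. The lowest ratio of any member on these scalings was 1.69, so both Early desiccation libraries stayed the highest of the 10 throughout.

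**Figure D3:**
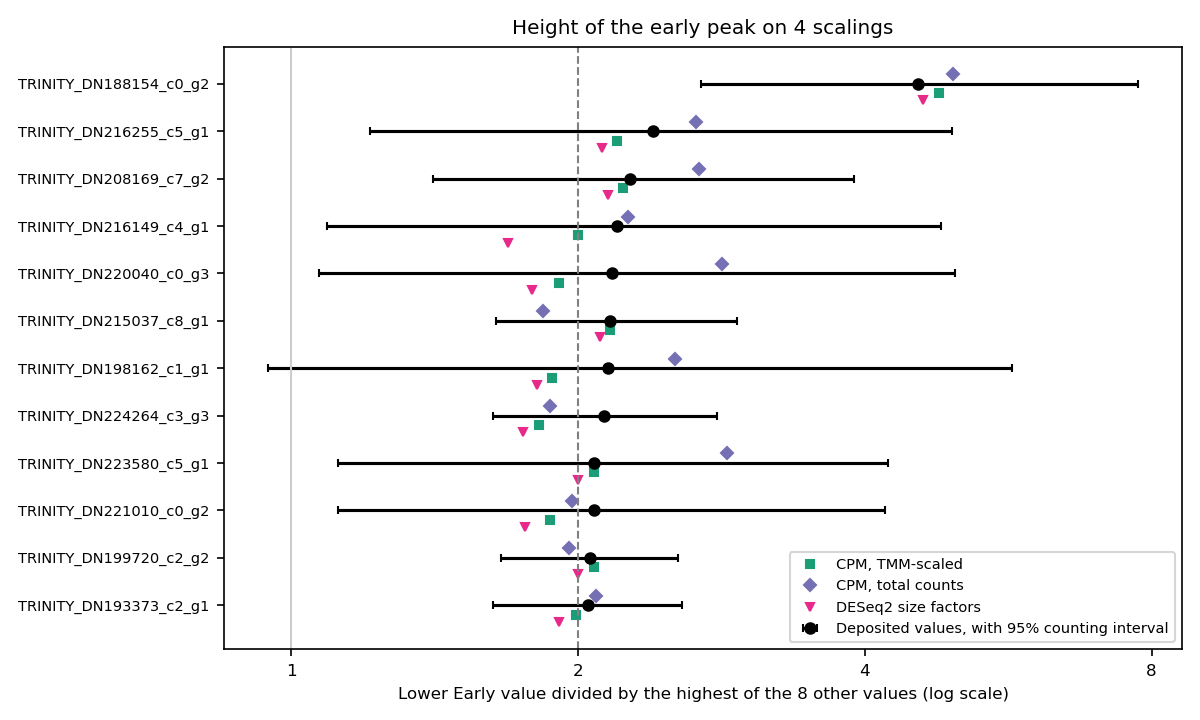
Ratio of the lower Early desiccation value to the highest of the 8 other values for each member (log axis), from the deposited values with a 95% counting interval (black) and from 3 other scalings of the counts (coloured). The dashed line marks the limit of 2, and 11 of the 12 intervals cross it.

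Membership depended on single libraries as well. Dropping a library can only loosen the rule, and the number of genes that met it was 84 without Early desiccation replicate 1, 30 without Early desiccation replicate 2, 47 without Late desiccation replicate 2 and 24 without Hydrated replicate 1. Without any one of the other 6 libraries it was 12 to 15. With a limit of 1.5 the rule took in 75 genes, and with a limit of 3 it kept TRINITY_DN188154_c0_g2 alone. The 2 members just inside the limit were TRINITY_DN193373_c2_g1, at 2.05, and TRINITY_DN199720_c2_g2, at 2.06. Just outside it were TRINITY_DN221870_c3_g1 at a ratio of 1.92, with 1.495 and 1.58 in Early desiccation and 0.357 to 0.779 elsewhere, and TRINITY_DN224641_c1_g1 at 1.9, with 13.9 and 14.0 in Early desiccation and at most 7.33 elsewhere. A further 9 assembly genes met the fold part with fewer counts. Their lower Early desiccation library had between 3.5 and 19.2 counts, and 3 of them were at 0 in all 8 other libraries.

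What the members did outside Early desiccation was not ordered by the rule, which only capped the other stages. Between Late desiccation and Hydrated drops the level of most members was much alike, with a median of 29.8% of the Early desiccation mean in Late desiccation and 25.1% in Hydrated. No member was called in Late desiccation against Hydrated by edgeR's quasi-likelihood test at an adjusted p under 0.05. In that test 0% of the 16190 genes were called in either direction. DESeq2 called none of the 12 among 383 genes in all. Over the 5 contrasts it gave no adjusted p for 29 of 60 combinations of member and contrast, which could thus not be called. At an unadjusted edgeR p under 0.05, 1 member was higher (4.86% of all genes) and 1 lower (4.69%). The higher one was TRINITY_DN216255_c5_g1, at a fitted log2 difference of 3.72 (edgeR SE 1.4 and adjusted p = 0.436), and the lower one TRINITY_DN215037_c8_g1, at -3.61 (SE 1.23, edgeR adjusted p = 0.381). The median log2 fold change was 0.24 over the 12 members and -0.03 over all genes tested. Mean values were lower in Late desiccation than in Hydrated for 7 of 12 members on the deposited scaling. The same held for 59.6% of the genes with at least 30 counts in both Early desiccation libraries. The 7 of 12 was thus near the background. On TMM-scaled CPM 4 members were lower and on DESeq2 size factors 3, so the balance of directions turned with the scaling. Both Late desiccation libraries lay below both Hydrated libraries in 1 member (30.7% of all genes tested) and above both in 1 (18.9%).

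In Dry drops the members ranged as widely as in Hydrated drops. The median member stood at 14.4% of its Early desiccation mean in Dry, against 25.1% in Hydrated, with a range from 0% for TRINITY_DN216255_c5_g1 and TRINITY_DN215037_c8_g1 to 36.8% for TRINITY_DN198162_c1_g1 in Dry, against 2.66% to 39.0% in Hydrated. For TRINITY_DN216255_c5_g1 a count of 0 still allowed values of 1.76 and 1.34 in Dry (replicates 1 and 2), against an Early desiccation mean of 8.285. Mean values were lower than in Hydrated for 10 of 12 members, and for 58.5% of the genes with at least 30 counts in both Early desiccation libraries. Both Dry libraries lay below both Hydrated libraries in 4 members (43.3% of all genes tested) and above both in 1 (22.6%). No member was called in Dry against Hydrated by edgeR, where 7.7% of genes were called higher and 5.38% lower, and 3 members were lower at an unadjusted p under 0.05 (16.1% of all genes) and 0 higher (14.4%). The numbers called and those at an unadjusted p were near the background, and the 4 and 1 without overlap were no higher than it. The 10 of 12 with a lower mean was above its background of 58.5%, a difference that was not tested. The median log2 fold change of the members was -0.53, or -0.52 over 11 members with the gene at 0 taken at its bound, and that of all genes was -0.50.

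The largest difference in Dry was that of TRINITY_DN215037_c8_g1, with no count in Dry against 82 counts in Hydrated, which was at least 9.58-fold lower when 3 counts over the stage are taken as the floor. Its edgeR adjusted p was 0.0535 in the fit of all libraries, and it was called lower by DESeq2, by edgeR without a filter on low counts, on total counts, with the replicate block and in the fit of these 2 stages alone. It was also called without Hydrated replicate 1 and without either library of Late desiccation or of Rehydrated. TRINITY_DN199720_c2_g2 averaged 1.57 ± 0.334 in Dry and 8.11 ± 4.39 in Hydrated (SD, n = 2 each), and edgeR fitted a log2 difference of -2.14 with an SE of 0.77 (adjusted p = 0.0907). It was called lower in the fit of these 2 stages alone, on total counts and without either Rehydrated library. TRINITY_DN208169_c7_g2 averaged 1.67 ± 2.36 in Dry and 10.2 ± 1.31 in Hydrated, and the fitted log2 difference was -2.29 with an SE of 1.01 (edgeR adjusted p = 0.16).

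An hour after rewetting, the median member stood at 5.18% of its Early desiccation mean, against 25.1% in Hydrated drops. The 5 members without a count in Rehydrated entered this median at 0. The rule itself kept both Rehydrated values well under the peak. The highest among members with counts there was TRINITY_DN224264_c3_g3, at 17.0%. A member without counts could have stood higher. For TRINITY_DN216255_c5_g1 a count of 0 still allowed values of 1.79 and 2.7 in Rehydrated (replicates 1 and 2), against an Early desiccation mean of 8.285. Mean values were lower in Rehydrated than in Hydrated for 12 of 12 members on the deposited values, 11 on TMM-scaled CPM and 10 on DESeq2 size factors, and for 77.8% of the genes with at least 30 counts in both Early desiccation libraries. Both Rehydrated libraries lay below both Hydrated libraries in 8 members (40.8% of all genes tested, and 54.1% of those with 30 Early desiccation counts) and above both in 0 (12.6%). No member was called in Rehydrated against Hydrated by edgeR, where 2.24% of genes were called higher and 3.55% lower. At an unadjusted p under 0.05, 5 members were lower (15.2% of all genes) and 0 higher (8.97%). The median log2 fold change over the members was -1.88 as fitted and -0.88 over 11 members with genes at 0 taken at their bounds. Over all genes, as fitted and without bounds, it was -0.09. Neither that median nor the 15.2% was limited to genes with 30 Early desiccation counts, as the members were. By mean value such genes were more often lower in Rehydrated, at 77.8% against 64.0% of all genes tested.

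Rehydrated against Hydrated is partly confounded with a split of the libraries, described in the last paragraph. Detection also limited this comparison. Of the members' 23 zeros outside Early desiccation, 9 were in Rehydrated replicate 2 and 6 in Rehydrated replicate 1, and 5 members had no count in either. With 3 counts over the stage as the floor, these were at least 5.83-fold lower than Hydrated for TRINITY_DN215037_c8_g1, 3.01-fold for TRINITY_DN208169_c7_g2, 1.84-fold for TRINITY_DN223580_c5_g1 and 1.71-fold for TRINITY_DN188154_c0_g2, and TRINITY_DN216255_c5_g1 was at or under the floor in both stages. Among members with counts, TRINITY_DN193373_c2_g1 came nearest to a call, with a mean of 0.497 ± 0.703 in Rehydrated and 5.77 ± 0.873 in Hydrated (SD, n = 2 each) and a fitted log2 difference of -2.69 with an SE of 0.7 (edgeR adjusted p = 0.0511). It was called lower by DESeq2, by edgeR without a filter, on total counts and without either Rehydrated library. TRINITY_DN199720_c2_g2 was called lower without Rehydrated replicate 1. With 3 counts in place of each of the 23 zeros, the lower Early desiccation value would still have been over 2 times that value, so the zeros did not decide membership.

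**Figure D4:**
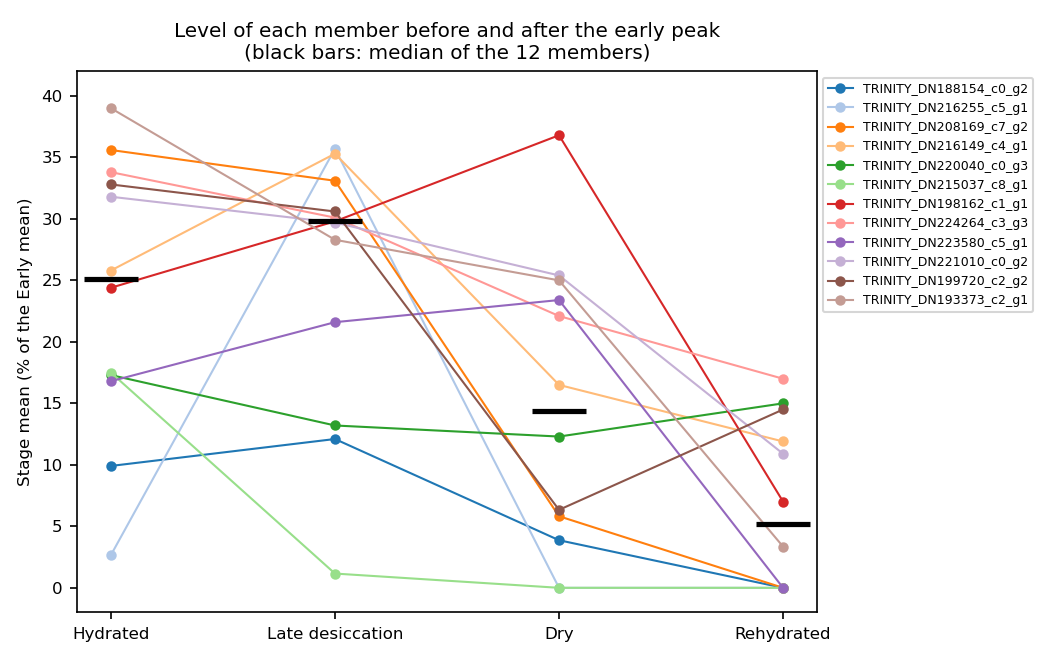
Mean normalised expression of each member in Hydrated, Late desiccation, Dry and Rehydrated drops, as % of its Early desiccation mean, with black bars at the medians of 25.1%, 29.8%, 14.4% and 5.18%. Most members lie at similar levels in Hydrated and Late desiccation and are lowest in Rehydrated.

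For the contrasts that the rule used, the tests are given as a description only. In Early desiccation against Hydrated no member was called by edgeR, where 0% of 16190 genes were called, and 9 were higher at an unadjusted p under 0.05 (3.74% of all genes) and 0 lower (7.26%). The lowest edgeR adjusted p of a member was 0.189, for TRINITY_DN188154_c0_g2, with a log2 fold change of 3.31 (SE 0.74). DESeq2 called none of the 12 and 376 genes in all, and edgeR on the libraries of these 2 stages alone gave 6 of the 12 among 579 genes in all. Without either Rehydrated library edgeR called TRINITY_DN188154_c0_g2. In Late against Early desiccation no member was called by edgeR (0% of all genes) or by DESeq2, which called 56 genes in all, and 7 were lower at an unadjusted p under 0.05 (1.98% of all genes) and 0 higher (5.57%). DESeq2 gave no adjusted p for 29 of the 60 combinations of member and contrast.

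Level, length and the division of reads are given as a description, since the rule used the Early desiccation values and counts. The Early desiccation means ran from 2.31 to 28.6 with a median of 9.26, against 5.19 for all 8819 genes with at least 30 counts in both Early desiccation libraries, and 10 of 12 lay above the middle of those genes. A short sequence needs a higher normalised level to reach the same count. Effective length, as counts per normalised value, had a median of 0.67 times that of the 8819 genes and ranged from 0.11 for TRINITY_DN208169_c7_g2 to 2.36 for TRINITY_DN215037_c8_g1. Estimated counts that are not whole numbers, the mark of reads shared between sequences, occurred in Early desiccation for 6 of 12 members (50%) and 30% of the 8819 genes. Values of these 6, TRINITY_DN188154_c0_g2, TRINITY_DN216255_c5_g1, TRINITY_DN208169_c7_g2, TRINITY_DN220040_c0_g3, TRINITY_DN215037_c8_g1 and TRINITY_DN193373_c2_g1, depend on how those reads were divided, and they include all 3 members that met the rule on every scaling.

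The members were scattered over the assembly. No 2 of them shared a component of the assembly, the level above the gene in the identifier. For 10 members the tables listed other assembly genes of the same cluster number, 28 in all, with 13 in the member's own component. The stage with the highest mean was Early desiccation for 7 of these 28, Hydrated for 2, Late desiccation for 5, Dry for 6 and Rehydrated for 8. In 1 of the 28 was the lower Early desiccation value the highest of all, TRINITY_DN220040_c0_g4, at 0.615 and 0.568 in Early desiccation and at most 0.445 elsewhere. Contrasting relatives, picked after their values were seen, were TRINITY_DN216255_c5_g3, with 26.9 and 41.6 in Dry against 3.45 and 3.28 in Hydrated, and TRINITY_DN215037_c8_g8, with 80.9 and 97.9 in Dry against 23.9 and 29.6 in Hydrated. Each shares its component with a member that was not detected in Dry.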

How the data were processed

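CASAVA 1.4, Trimmomatic 0.35, Bowtie2 2.2, RSEM 1.2.28 and DESeq2 are named in the submitters' processing notes, without their roles. The assembly behind the identifiers is not stated in the labels or headers. One table, as deposited by the authors, holds expected counts per assembly gene (11.4% of values not whole). The other deposited table holds a score, which by its name and values is length-normalised expression scaled by a TMM factor per library, with the formula not stated. Column names start with Scos and sample titles with Ecos, so columns and samples were joined on the replicate number and the time code.

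The members come from the score table. For tests, expected counts were rounded and fitted in R 4.3.3 with edgeR 4.0.16: filterByExpr (minimum count 10, minimum total 15; 16190 genes kept, all 12 members among them), TMM, 1 quasi-likelihood fit of all 10 libraries with 5 residual degrees of freedom, and Benjamini-Hochberg adjustment over all genes. The SE is the absolute log2 fold change divided by the square root of F. DESeq2 1.42.0 was an alternative. Counting intervals are 95% exact binomial intervals (Clopper-Pearson, SciPy 1.17.1) of the 2 libraries' counts. The limit at 0 is 3 counts.

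The members and the lists were chosen with earlier results of these data known. The rule for naming took members by level, peak height, counts, calls and nearness to the limit, and all 12 are described.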

Additional observations from a re-analysis of the deposited data

How the results depend on the processing

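The 12 members became 75 at a limit of 1.5 and 1 at a limit of 3, 15 at a count minimum of 10 and 4 at 100. On TMM-scaled CPM the rule gave 6 genes, all members, on total-count CPM 25, of which 8 were members, and on DESeq2 size factors 5, all members. Leaving out a library gave 12 to 84. No member was called in any of the 5 contrasts in the fit of all libraries, nor with a split of the libraries, described below, as a term. In Early desiccation against Hydrated, fitting these stages by themselves gave 6 (579 of all genes) and leaving out a library gave 0 to 1. In Late against Early desiccation, edgeR without a filter called 1 (4 of all genes) and the fit of these stages alone 1 (9), and leaving out a library gave 0. In Late desiccation against Hydrated the count was 0 under each alternative run. In Dry against Hydrated it was 1 with DESeq2 (3177 of all genes), 4 on total counts (4425), 1 without a filter (1683), 2 in the fit of these stages alone (4607), 1 with the replicate block (1973), and 0 to 2 on leaving out a library. In Rehydrated against Hydrated it was 1 with DESeq2 (1950 of all genes), 6 on total counts (4097), 2 without a filter (1507), and 0 to 2 on leaving out a library. The calls in Early desiccation against Hydrated were higher and those in the other contrasts lower.

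The alternatives in this paragraph were chosen after seeing the data. The 7 members with a lower mean in Late desiccation than in Hydrated became 4 on TMM-scaled CPM, 3 on DESeq2 size factors, 3 between the replicate 2 libraries and 9 between the replicate 1 libraries, which lie on opposite sides of a split of the libraries known from earlier results, and 5 to 8 on leaving out a library. Replicate 2 of Hydrated and of Late desiccation and both Rehydrated libraries lie on one side of that split, and the remaining libraries on the other. Rehydrated against Hydrated is thus partly confounded with the split. The 10 lower in Dry became 9 to 12, and the 12 lower in Rehydrated 10 to 12. Of 156 recomputed ratios, 152 lay inside the counting interval, and the lowest was 1.69. Many of these left out a single library, which can only keep a ratio or raise it. Their number inside the interval therefore says little about how firm the peaks are. The cause of the shifts in this paragraph was not tested. Whether replicate numbers pair the libraries is not stated in the labels. Correlations of same-numbered deviations ran from -0.05 to 0.36 over all pairs of stages, with 0.36, 0.27 and 0.14 among Hydrated, Late desiccation and Rehydrated, where the replicate block left the count of called members at 0.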
